A study of Arabidopsis thaliana with 4 samples.

Results

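The conserved microRNA genes of Arabidopsis thaliana were examined for peaks of LEAFY COTYLEDON1 (LEC1), a transcription factor subunit needed for normal maturation of the embryo. Members were the nuclear genes of the RefSeq TAIR10.1 annotation with symbols from MIR156 to MIR172, MIR319, from MIR390 to MIR399, or MIR408, with or without a final letter. They numbered 97 of 326 nuclear MIR genes and of 37899 nuclear genes of all kinds, and were taken by symbol. The data came from bent cotyledon-stage seeds of plants homozygous for the lec1-1 mutation and for LEC1:LEC1-GFP:LEC1, a transgene that fuses LEC1 to green fluorescent protein (GFP) between LEC1 flanking sequences. Chromatin precipitated with an anti-GFP antibody (2 biological replicates) was set against input, total fragmented chromatin of the same seeds (2 biological replicates). All samples carried both lec1-1 and the transgene, so there was no sample without the tagged protein. Whole seeds hold embryo, endosperm and seed coat, and the tissue that gave a peak cannot be told from these data. The deposited result was 1 list of 6356 peaks for the whole series, with a score per peak from the authors that ran from 1.92 to 4.51 on an unstated scale. Values below therefore describe that list, have no replicate error and carry no test between groups.

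A microRNA (miRNA) gene is transcribed by RNA polymerase II into a primary transcript that folds into a hairpin. In plants the nuclease DCL1 cuts the hairpin, the methyltransferase HEN1 protects the small RNA, and AGO1 uses it to find and cut, or block the translation of, messenger RNAs with a matching site. Several of the families shared by land plants act on transcription factors, and in seeds they are known for holding back maturation genes in the young embryo, for patterning its shoot and leaves, and for setting hormone responses at germination. Genes of 1 family give identical or nearly identical small RNAs and differ mainly in where and when they are transcribed. The families miR158, miR161 and miR163, which fall inside the number range, are known from Brassicaceae only. They held 4 of the 97 genes, and none of these 4 had a peak.

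A LEC1-GFP peak lay in or within 1 kb of 18 of the 97 conserved MIR genes (18.6%), of 20 of the other 229 MIR genes (8.73%), and of 6738 of 27444 protein-coding genes (24.6%). Over all 37899 nuclear genes, members included, the share was 21.0%, near that of the conserved MIR genes. It was 20.3% of 3480 lncRNA genes and 13.2% of 994 genes of tRNA, snoRNA and snRNA, which are short like MIR genes. Protein-coding genes are far longer than MIR genes, whose entries in the annotation cover little more than the hairpin (median length 124 bp for conserved MIR genes and 2078 bp for protein-coding genes). With only the 1000 bp outside either end searched, the shares were 18.6% of conserved MIR genes, 8.73% of other MIR genes and 21.4% of protein-coding genes. Counted per base, peaks covered 2.30% of the 199 kb searched at conserved MIR genes, 0.931% of 469 kb at other MIR genes and 1.54% of 88800 kb at protein-coding genes. At genes of tRNA, snoRNA and snRNA they covered 1.78% of 1550 kb. The share at conserved MIR genes was thus above that of other MIR genes and below that of protein-coding genes by gene, and above both by base. The place above protein-coding genes by base rested on 2 families: without MIR156 and MIR168, peaks covered 1.09% of the bases searched at the remaining 85 conserved MIR genes, below the 1.54% at protein-coding genes. That was also below the 1.78% at genes of tRNA, snoRNA and snRNA, and little above the 0.931% at other MIR genes. The 2 families were left out because they were seen to have many peaks, so a fall was set in advance. No genes were left out of the other sets, so these comparisons are uneven. With 500 bp flanks a peak was found at 11.3% of conserved MIR genes, 3.06% of other MIR genes and 20.4% of protein-coding genes. With 2000 bp flanks it was found at 22.7% of conserved MIR genes, 13.5% of other MIR genes and 31.5% of protein-coding genes, and in the gene body alone at 1.03% of conserved MIR genes, 0.0% of other MIR genes and 12.5% of protein-coding genes. The nearest peak was a median of 6.02 kb from a conserved MIR gene (interquartile range 2.21 to 11.8 kb), 9.72 kb from other MIR genes and 5.09 kb from protein-coding genes.

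**Figure D1:**
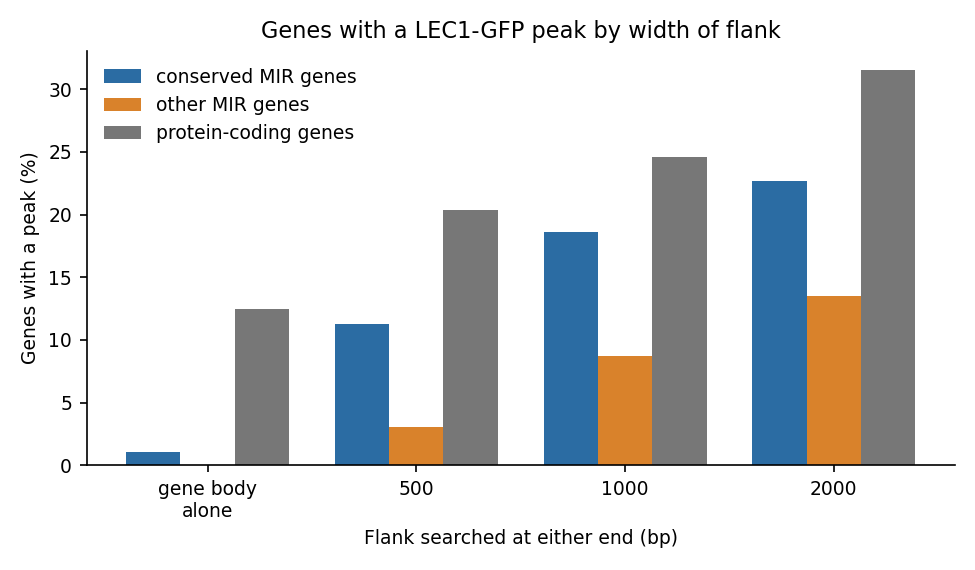
Share of genes with a LEC1-GFP peak (vertical axis, percent) when the gene body alone or a flank of 500, 1000 or 2000 bp at either end is searched (horizontal axis), for 97 conserved MIR genes (blue), 229 other MIR genes (orange) and 27444 protein-coding genes (grey). At each width the conserved MIR genes stand between the other 2 sets, with 11.3%, 18.6% and 22.7% at the flanks of 500, 1000 and 2000 bp, and 1.03% in the gene body.

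Other MIR genes differ from the members in where they sit. Of the other MIR genes, 81 of 229 overlapped a protein-coding gene, whereas 8 of the 97 members did. Among genes more than 1 kb from any protein-coding gene, 10 of 52 members (19.2%) and 5 of 69 other MIR genes (7.25%) had a peak. Among those nearer to one, 8 of 45 members (17.8%) and 15 of 160 other MIR genes (9.38%) had a peak.

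Peaks fell in 13 of the 28 families and were spread thinly, with MIR156 and MIR168 as the exceptions. The MIR156 family had peaks at 5 of 10 genes and MIR168 at both of its genes, so these families together held 7 of the 18 genes with a peak. The remaining 85 members had a peak at 11 genes (12.9%). Of the 12 families with a peak and at least 2 genes, 10 had exactly 1 gene with a peak. The 15 families without a peak held 50 genes.

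**Figure D2:**
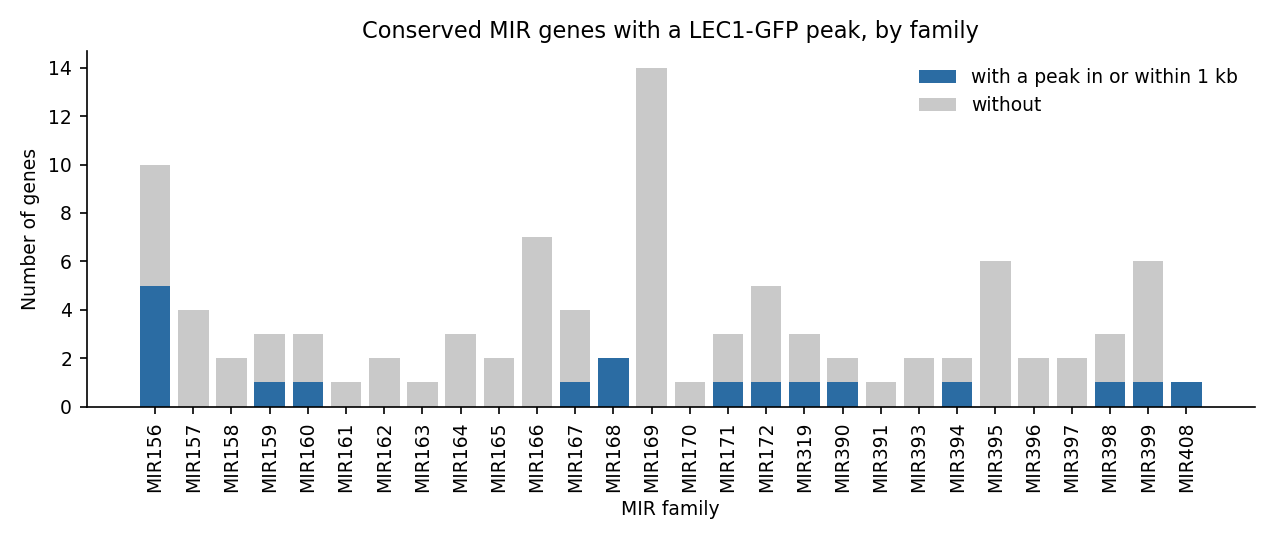
Number of annotated genes (vertical axis) in each of 28 MIR families (horizontal axis), with genes that have a LEC1-GFP peak in or within 1 kb in blue and the rest in grey. MIR156 has 5 of 10 and MIR168 has 2 of 2 genes in blue, whereas MIR169, the family with the most genes, has 0 of 14.

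Nearly all of the 19 peaks at the 18 genes lay beside the annotated hairpin. The hairpin (median 124 bp) is a small part of a window with 1000 bp at either end, so most peaks found there lie beside it by construction. Only the peak at MIR168b overlapped the gene. Of the other 18 peaks, 9 lay toward lower and 9 toward higher coordinates. The annotation used here has no strand, so upstream and downstream cannot be told apart. The median distance from gene to peak was 391 bp, the longest was 845 bp, and 11 of 19 peaks lay within 500 bp. Median peak width was 199 bp (49 to 499 bp), against 249 bp for all peaks. Peak edges lie on a 50 bp grid, so these distances are no finer than that.

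**Figure D3:**
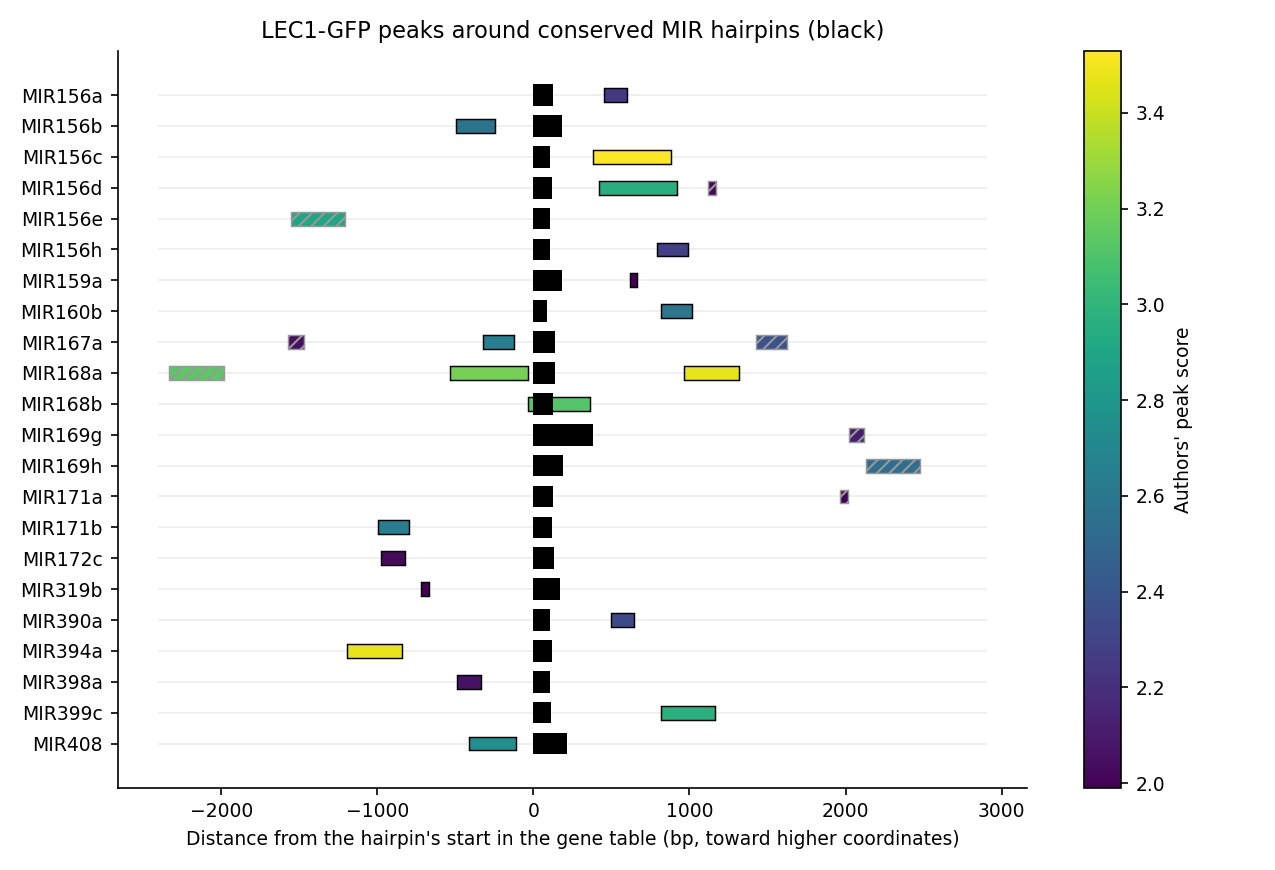
LEC1-GFP peaks within 2 kb of 22 conserved MIR genes, drawn to scale by distance in bp from the start of the annotated hairpin (horizontal axis, toward higher coordinates). Black bars are hairpins, coloured bars are peaks shaded by the authors' score, and hatched bars are peaks farther than 1 kb from the gene. Peaks stand on both sides, and only the MIR168b peak covers its hairpin.

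Scores at the 19 peaks ran from 1.99 to 3.53 with a median of 2.64, against a median of 2.45 for all 6356 peaks. Of the 19 peaks, 12 (63.2%) stood among the highest-scoring 50% of the list, and 3 (15.8%) among the highest 5%. The 3 were at MIR156c, MIR394a and MIR168a. The 20 peaks at other MIR genes had a median score of 2.52, with 12 of the 20 among the highest-scoring 50% and 2 among the highest 5%. At the low end, the peaks at MIR159a and MIR319b ranked 6086 and 6085 of 6356, so they are among the weakest that the authors kept.

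**Figure D4:**
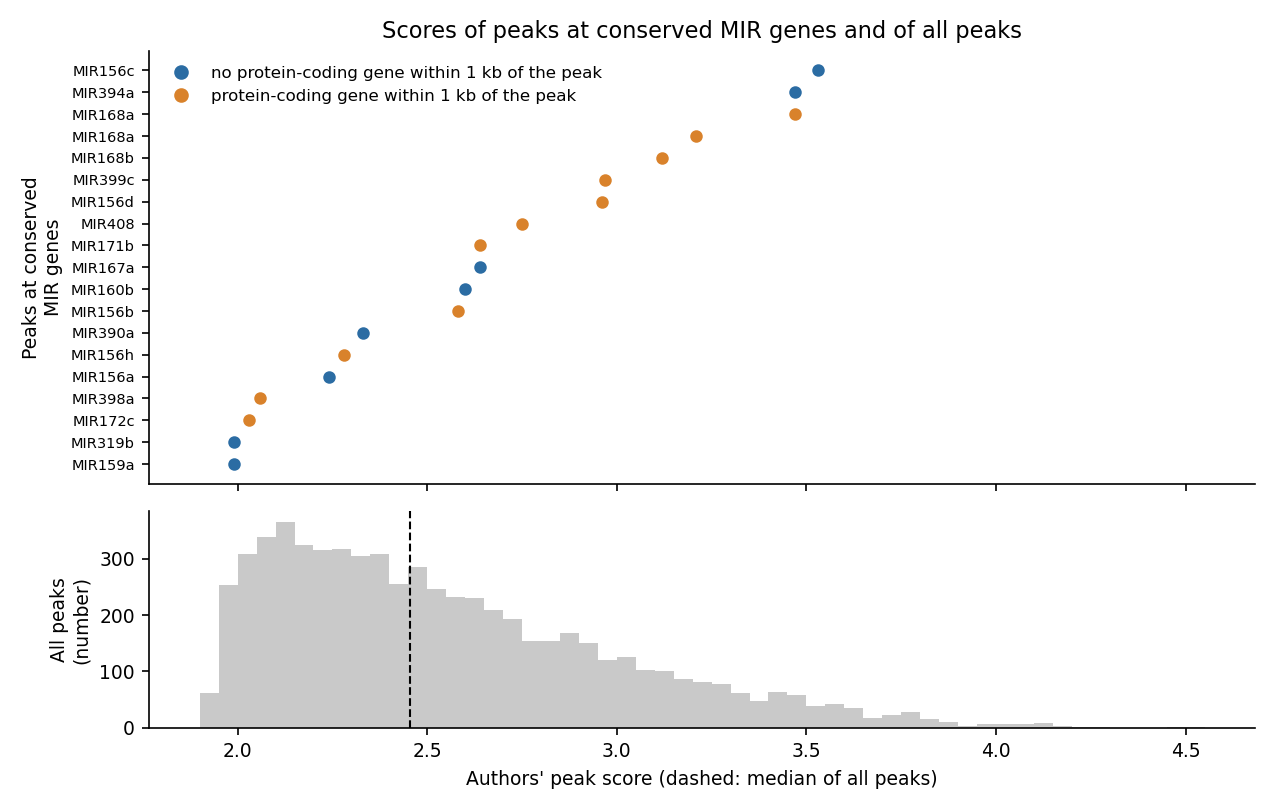
Authors' score (horizontal axis, both panels) of each of the 19 peaks at conserved MIR genes (upper panel, 1 row per peak, MIR168a with 2) and of all 6356 peaks (lower panel, number of peaks per bin of score, dashed line at the median). Blue points are peaks with no protein-coding gene within 1 kb and orange points are peaks with one. Of the 19, the 7 lowest peaks lie below the median of all peaks, and the highest is MIR156c at 3.53.

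miR156 cuts the messenger RNAs of SPL transcription factors, which promote the change from juvenile to adult growth, and in the Arabidopsis embryo it is known to delay the onset of maturation. MIR156c had the highest score of all members, 3.53 (rank 227), from a peak 280 bp away at chr4:15415801-15416299. No protein-coding gene lay within 1 kb of it, and the nearest, AT4G31880, was 2648 bp away. MIR156d had a score of 2.96 (rank 1160) from a peak 302 bp away at chr5:3457051-3457549. That peak also overlapped AT5G10946, a protein-coding gene that the MIR156d hairpin overlaps. A narrower peak of score 2.02 lay just outside the 1 kb, 1002 bp from MIR156d at chr5:3457751-3457799 and 124 bp from AT5G10946. MIR156b had a score of 2.58 from a peak 250 bp away at chr4:15074401-15074649, which overlapped the protein-coding gene AT4G30970 and the non-coding gene AT4G30975. MIR156h had a score of 2.28 from a peak 684 bp away at chr5:22597801-22597999, which overlapped AT5G55840 and lay 958 bp from AT5G55830, a lectin receptor kinase gene. MIR156a, the fifth, had a score of 2.24 from a peak 328 bp away at chr2:10676901-10677049, with no protein-coding gene within 1 kb.

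The other 5 genes of the family had no peak within 1 kb. MIR156e came closest, with a peak of score 2.90 at a distance of 1208 bp (chr5:3865651-3865999). The nearest peak to MIR156f was 2607 bp away, and to MIR156g 11833 bp. MIR156i and MIR156j overlap SPL4 and SPL9, themselves targets of miR156, and were 13188 and 10664 bp from a peak. MIR157, which makes a closely related small RNA against the same targets, had 0 of 4 genes with a peak, the nearest peak being 6862 bp from MIR157d. Counted together, 5 of 14 MIR156 and MIR157 genes had one.

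miR168 acts on the messenger RNA of AGO1, the protein that carries miRNAs, and so forms a feedback loop within the pathway. MIR168a was the only member with 2 peaks within 1 kb. The nearer one, 36 bp from the gene at chr4:10578101-10578599, had a score of 3.21 (rank 626), and the farther one, 829 bp away on the other side at chr4:10579601-10579949, had 3.47 (rank 287). A peak of score 3.14 stood 1986 bp away at chr4:10576301-10576649. The nearer peak was 697 bp from the protein-coding gene AT4G19390, and the farther one overlapped the lncRNA gene AT4G06880 and lay 878 bp from AT4G19400 and 944 bp from AT4G19410, the pectin acetylesterase gene PAE7. MIR168b had a score of 3.12 (rank 793) from the peak that covered its hairpin, chr5:18358751-18359149, which lay 126 bp from AT5G45310. All 3 peaks at this family were among the highest-scoring 12.5% of the list.

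miR394 represses the F-box gene LCR and is known to move from the outermost cell layer of the embryo's shoot tip to keep stem cells below it. MIR394a had a score of 3.47 (rank 281) from a peak 845 bp away at chr1:7057001-7057349. The nearest protein-coding gene, AT1G20370, was 3256 bp from this peak. MIR394b was 8009 bp from its nearest peak.

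Of 4 families that act on auxin response, MIR160, MIR167 and MIR390 had a peak at 1 gene each and MIR393 at none. miR167 targets the activating auxin response factors ARF6 and ARF8, and MIR167a had a score of 2.64 (rank 2275) from a peak 123 bp away at chr3:8107751-8107949. Peaks of score 2.38 and 2.05 stood at 1292 and 1473 bp on opposite sides of the gene, and none of the 3 had a protein-coding gene within 1 kb. MIR167b, MIR167c and MIR167d were 7169, 15273 and 25286 bp from a peak. miR160 targets the repressing factors ARF10, ARF16 and ARF17, of which ARF10 is known to affect germination, and MIR160b had a score of 2.60 from a peak 731 bp away at chr4:9889801-9889999. The nearest protein-coding gene to that peak, AT4G17790, was just outside 1 kb, at 1052 bp. miR390 starts the production of small RNAs from TAS3 that act on further ARF genes, and MIR390a had a score of 2.33 from a peak 391 bp away at chr2:16062451-16062599, with only the lncRNA gene AT2G08955 within 1 kb of it. MIR390b was 9898 bp from a peak, and the genes of MIR393, whose small RNA acts on auxin receptors, were 3318 and 4598 bp from one.

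Families that act on further developmental transcription factors had peaks at MIR171b, MIR172c, MIR159a and MIR319b. miR171 targets HAM genes, which maintain meristems, and MIR171b had a score of 2.64 (rank 2235) from a peak 799 bp away at chr1:3960351-3960549. This peak overlapped the protein-coding gene AT1G11730. MIR171a had a peak of score 2.00 at 1845 bp, and MIR171c and MIR170 had none within 2 kb. miR172 targets AP2-type genes that delay flowering, and MIR172c had a score of 2.03 from a peak 827 bp away at chr3:3598801-3598949, which was 849 bp from GPAT5, an acyltransferase gene of suberin synthesis. miR159 targets GAMYB-type genes, which act in seed hormone responses, and miR319 targets TCP genes of leaf growth. MIR159a and MIR319b each had a peak of the smallest width in the list (49 bp) and a score of 1.99, at 435 and 670 bp (chr1:27713851-27713899 and chr5:16659751-16659799), with no protein-coding gene within 1 kb.

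Families of nutrient responses had 3 genes with a peak. miR408 and miR398 rise when copper is short and act on copper proteins, laccases and plantacyanin for miR408 and superoxide dismutases for miR398. MIR408, the single gene of its family, had a score of 2.75 (rank 1795) from a peak 115 bp away at chr2:19319401-19319699. This peak overlapped AT2G47020, a protein-coding gene that the MIR408 hairpin overlaps, and was 4 bp from AT2G47010. MIR398a had a score of 2.06 from a peak 339 bp away at chr2:1040451-1040599, 267 bp from NRP1 and 789 bp from the acid phosphatase gene PAP9, while MIR398b and MIR398c were 17773 and 21445 bp from a peak. miR399 acts on PHO2 when phosphate is short, and MIR399c had a score of 2.97 (rank 1131) from a peak 703 bp away at chr5:24963301-24963649, at 997 bp from the MADS-box gene AGL42. The other 5 MIR399 genes, and all 6 genes of MIR395, which serves sulfate uptake and assimilation, had no peak within 1 kb. MIR395f came closest of the MIR395 genes, with a peak of score 3.55 at 2132 bp.

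Some of these peaks had no protein-coding gene in reach. Of the 19 peaks at conserved MIR genes, 8 (42.1%) had no protein-coding gene in or within 1 kb, against 3 of 20 peaks at other MIR genes (15.0%) and 942 of all 6356 peaks (14.8%). These 8 were the peaks at MIR156a, MIR156c, MIR159a, MIR160b, MIR167a, MIR319b, MIR390a and MIR394a. The peaks at MIR159a and MIR160b passed the limit narrowly, at 1011 bp from CDKD1;1 and 1052 bp from AT4G17790. Members more often lie away from protein-coding genes (52 of 97 by more than 1 kb) than other MIR genes (69 of 229), and the part of this in the difference was not tested. The other 11 peaks, at 10 members, had a protein-coding gene within 1 kb. The coding gene was the nearer one at 6 of them and the MIR gene at 5. The MIR gene was nearer by less than the 50 bp grid at MIR172c (827 against 849 bp). The same held for the farther peak at MIR168a (829 against 878 bp). Peaks overlapped a protein-coding gene at 5 members, MIR156b, MIR156d, MIR156h, MIR171b and MIR408. To which gene a shared peak belongs cannot be told from the list.

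Families with no peak include several with many members. MIR169, whose small RNAs act on NF-YA genes, had 0 of 14 genes with a peak, although MIR169g and MIR169h had peaks of score 2.11 and 2.54 at 1644 and 1942 bp, and both peaks overlapped a protein-coding gene. MIR165 and MIR166, which act on HD-ZIP genes of leaf polarity and shoot formation, had 0 of 9, with the nearest peak 2007 bp from MIR166b. MIR164, which acts on CUC genes at organ boundaries, had 0 of 3, and MIR158, MIR162, MIR393, MIR396 and MIR397 had 0 of 2 each. Of the 5 families with a single gene, MIR408 had a peak and MIR161, MIR163, MIR170 and MIR391 had none. MIR396a, in a region with few peaks, was 120278 bp from the nearest one, the farthest of all members. Members in groups with gaps of up to 5 kb between neighbours (7 groups with 21 genes of MIR166, MIR169, MIR395, MIR398 and MIR399) had no peak, whereas 18 of the 76 single genes had one (23.7%). The groups were formed by distance alone, and no sequences were compared. Neighbours in a group are not separate cases, so the 21 genes stand for 7 loci. With each group counted once, 18 of 83 loci (21.7%) had a peak, near the 21.0% of all nuclear genes.

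Targets of most of the 28 families were read with a list of 89 genes known as targets, of which TAS3 is non-coding. Of these, 33 (37.1%) had a peak in or within 1 kb, against 24.6% of all protein-coding genes. With only the 3178 highest-scoring peaks the shares were closer, 15.7% of targets and 13.5% of protein-coding genes. The highest scores of the 33 ran from 2.01 to 3.43 with a median of 2.36, against a median of 2.45 for all 6356 peaks. For targets, miR156 was joined with miR157, miR165 with miR166 and miR170 with miR171, and MIR158, MIR161 and MIR391 had no listed target. The resulting 22 families are thus not the 28 counted above. Taken by family, 7 of 22 had a peak both at a MIR gene and at a target, 6 at MIR genes alone, 6 at targets alone, and 3 at neither. Targets of families with a peak at a MIR gene had one at 14 of 50 (28.0%), and targets of the other families at 19 of 39 (48.7%). Single families weighed on these shares. The first included 0 of 11 targets of miR156 with miR157 and 0 of 8 of miR159. miR159 stood in it only through the MIR159a peak, of score 1.99 and rank 6086 of 6356. miR319, miR172 and miR398 stood in it only through peaks of scores 1.99, 2.03 and 2.06. The second included 6 of 7 targets of miR169 and 4 of 4 of miR393. By family the share of targets ran from 0.0% to 100.0% in both groups, and the difference was not tested.

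**Figure D5:**
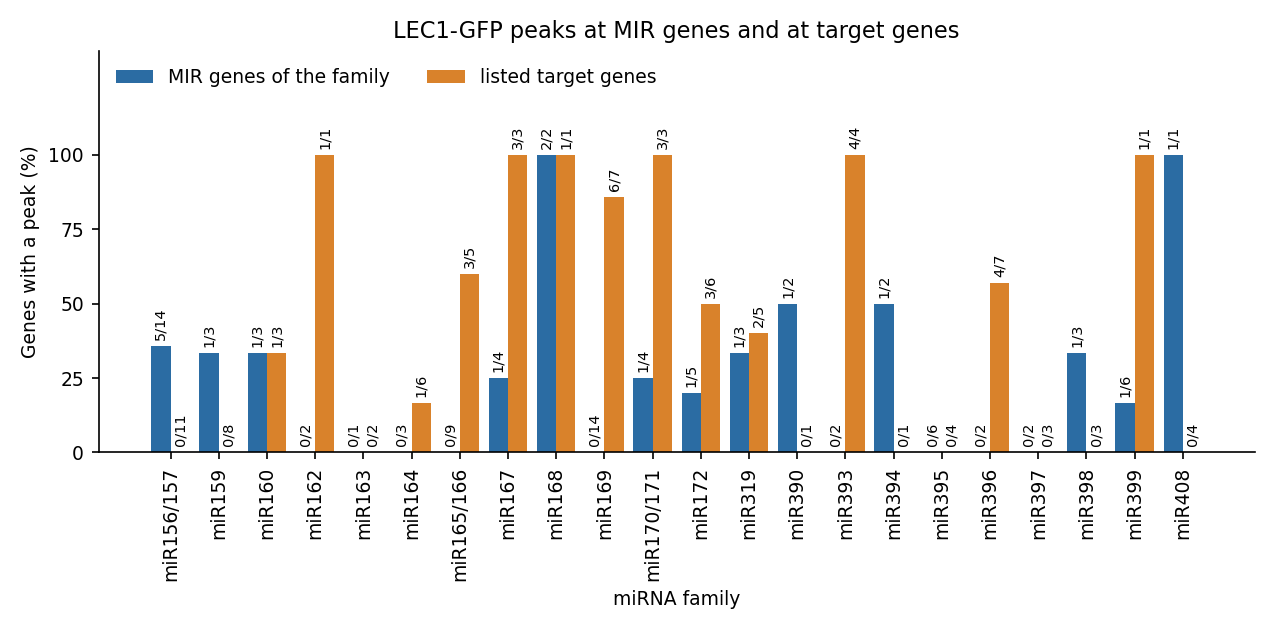
Share of genes with a LEC1-GFP peak in or within 1 kb (vertical axis, percent) for MIR genes (blue) and listed target genes (orange) of 22 miRNA families (horizontal axis); the numbers above the bars are genes with a peak out of all genes. miR156 with miR157, and miR159, have peaks at MIR genes and at 0 of 11 and 0 of 8 targets. miR169 and miR393 have peaks at 6 of 7 and 4 of 4 targets and at no MIR gene. The blue bar of miR159 rests on 1 gene, MIR159a, with a peak of score 1.99.

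In some families the MIR side and the target side differed. Whether they differed more often than unrelated sides would was not tested. None of the 11 SPL genes on the list had a peak, SPL11 being closest at 1093 bp, although 5 MIR156 genes did. The 8 MYB genes targeted by miR159 had none either. miR393 showed the opposite, with no peak at its 2 genes and peaks at all 4 auxin receptor genes, TIR1 with 3 peaks and a highest score of 3.43 (chr3:23276351-23276999), AFB1 with 3.37, AFB2 with 2.82 and AFB3 with 2.37. Of the NF-YA genes targeted by miR169, 6 of 7 had a peak, led by NF-YA1 with 3.18 and NF-YA9 with 3.11, then NF-YA3 with 2.59 and NF-YA8 with 2.15. NF-YA proteins are the DNA-binding partners of LEC1 type subunits.

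Families with a peak on both sides were miR160, miR167, miR168, miR170 with miR171, miR172, miR319 and miR399. Other genes that share the peaks at targets are not given here. A peak overlapped the gene itself at 15 of the 89 targets, and some others lay far off, as at HAM2 (838 bp) and PHO2 (738 bp). With a peak counted only for its nearest gene, 26 targets (29.2%) had one, against 17.6% of protein-coding genes. For miR168 the score was 2.07 at AGO1 (chr1:17892651-17892699, a peak of 49 bp), below the 3 peaks at its MIR genes. For miR167 ARF6 had 2.55, ARF8 had 2.27 and IAR3, an auxin amidohydrolase gene, had 2.07. The 3 HAM genes had 2.81 at HAM3, 2.36 at HAM2 and 2.07 at HAM1. SNZ, AP2 and SMZ had 2.34, 2.17 and 2.01, TCP2 and TCP4 had 2.62 and 2.13, ARF10 had 2.41 and PHO2 had 2.09. Of the families with targets alone, HB-8, PHB and PHV of the HD-ZIP group had 2.70, 2.62 and 2.04, GRF4, GRF3, GRF8 and GRF9, growth factor genes targeted by miR396, had 2.72, 2.50, 2.18 and 2.03, and CUC1 had 2.34.

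Genes of miRNA synthesis and action had a peak at 5 of 21 (23.8%), against 24.6% of all protein-coding genes. These genes are longer, with a median of 4143 bp against 2078 bp, and peaks covered 0.693% of their bases and flanks, against 1.54% at protein-coding genes. DDL, which helps DCL1 reach primary transcripts, had the highest score, 2.80 (chr3:7177901-7178199). DCL1, itself the target of miR162, had 2.51, PRL1, a processing cofactor, had 2.31, HEN1 had 2.09 and AGO1 had 2.07. HYL1 and SE, the partners of DCL1 in the cutting of hairpins, had no peak within 1 kb.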

How the data were processed

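Per the labels' protocols, LEC1-GFP ChIP and input libraries came from chromatin fragments of 100 to 500 bp, with 15 cycles of PCR. The submitters' processing notes name TAIR10, Bowtie 0.12.7 and SAMtools 0.1.19. How peaks were called, at what threshold, how duplicates and reads with several matches were handled, and whether replicates were pooled is not stated. The deposited score per peak is the authors' value on an unstated scale and was used only to describe and rank peaks. There are no values per sample, so samples were not compared and library depths are unknown.

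Genes came from RefSeq TAIR10.1, whereas the notes name TAIR10. As a check of the match, 34.0% of peak midpoints lay in protein-coding genes, against 64.0% and 62.7% after shifts of 10000 bp to either side. Gene positions are not printed. Peak starts were raised by 1 to count from 1. Distances run from edge to edge, and a gene had a peak with at least 1 bp of it in the gene or its 1000 bp flanks. The distance calculation was tested on simulated data. Target and synthesis lists were matched by symbol or synonym (89 of 89 and 21 of 22 names). The members and lists were chosen with earlier results of these data known. Genes were named by a rule: all members with a peak, peaks at 1 to 2 kb, coding genes sharing a peak, and up to 4 targets per family by score; other genes were named after their values were seen. No sequences are shown. Calculations used pandas 2.3.3 and numpy 2.4.6. Alternatives covered flanks, peak sets, overlap, nearest gene and grouping of neighbouring members.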

Additional observations from a re-analysis of the deposited data

How the results depend on the processing

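No paired analysis was possible because the peak list holds no value per sample, and for the same reason no replicate could be left out. In each of the 9 settings that could be compared, the share with a peak was higher at conserved than at other MIR genes. These settings overlap, so they are not separate evidence, and all of them keep MIR156 and MIR168. The count of 18 conserved MIR genes with a peak stayed between 12 and 22 in 7 of 10 alternatives. It was 11 with 500 bp flanks, 11 with the 3178 highest-scoring peaks and 1 with the gene body alone; the 13 families became 7, 8 and 1 and the 20 other MIR genes 7, 13 and 0. Other MIR genes also moved to 31 with 2000 bp flanks and to 2 with the nearest gene only. Peaks shared with protein-coding genes, 11 as reported, were 5 with 500 bp flanks, 21 with 2000 bp flanks, and 0 with the gene body alone or the nearest gene only. With the gene body alone, protein-coding genes with a peak fell to 3432, targets to 15 and synthesis genes to 1. With the 3178 highest-scoring peaks they were 3707 (13.5%), 14 (15.7%) and 2 (9.52%). These settings search fewer bases or peaks by construction. Flanks without the gene body, coverage without MIR156 and MIR168, and all alternatives for scores and shared peaks, were added once the data had been seen. The depth is unknown, so a gene without a peak is not shown to lack LEC1-GFP.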

Other observations

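Among the other MIR genes, the highest score was 3.68 (rank 121) at MIR5647, from a peak 918 bp away that overlapped ARL2. MIR823, whose small RNA is known to act on a DNA methyltransferase gene, had a score of 3.59 from a peak 276 bp away that overlapped PRA8. MIR858a and MIR858b, which act on MYB genes of flavonoid synthesis, shared a peak of score 2.46 at 126 and 916 bp, with no protein-coding gene within 1 kb. With a peak counted only for its nearest gene, 12 of 97 conserved MIR genes (12.4%) and 2 of 229 other MIR genes (0.873%) had one, against 17.6% of protein-coding genes.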
